A study of Mus musculus with 12 samples.

Results

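The 42 genes described here encode the mouse proteins that cut out damaged or mispaired bases, that remove alkyl groups from guanine directly, and that copy past lesions during replication. They were taken by gene name from a fixed list of excision repair, mismatch repair and translesion synthesis genes, and all 42 were among the 35999 genes of the table. RNA-seq had been made from LSK cells, a sorted bone marrow fraction (no lineage markers, with Sca-1 and KIT) that holds hematopoietic stem cells and multipotent progenitors. The 12 libraries comprised 6 from WT mice and 6 from mice knocked out for Fancg (KO), a component of the Fanconi anemia core complex, and both groups carried replicate numbers 2 to 7. Neither group had a treatment in the labels, and the strain, age and sex of the mice were not given in the sources used here. The cells came from 6 mice of each genotype, which matches 1 library per mouse. In such bulk libraries fewer cells of a type cannot be told apart from less RNA per cell.

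Mismatch repair recognises replication errors through MutS dimers (Msh3 and Msh6 are partners in them) and cuts the new strand through MutL dimers (Pms1, Pms2 and Mlh3). Nucleotide excision repair opens the helix around bulky lesions with the TFIIH complex and removes an oligonucleotide, whereas base excision repair starts with a glycosylase that releases a single damaged base. Translesion polymerases such as Rev1 and the Rev3l-Mad2l2 pair insert bases opposite lesions, and the Fanconi anemia pathway hands unhooked crosslinks to these polymerases and to excision nucleases.

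The libraries were checked before the genes were compared. Fancg did not separate the labels, with a signal from 4.76 to 24.1 in WT and from 4.46 to 14.5 in KO (two-sided exact permutation test, n = 6 per group, p = 0.636), so the groups are named as labelled. Signal means the deposited value, an estimated read count divided by 1 factor per library. The libraries held approximately 1235086 to 2471271 reads, and Lars2 alone took 15.6 to 36.2% of the signal. Of 12 LSK marker genes, 11 passed the level filter. The summed signal of all 12 was 1878 to 2408 in WT and 1518 to 2224 in KO. Ly6a, which encodes Sca-1, was low at 4.84 to 17.4 per library. The 9 erythroid markers summed to 7.47 to 34.0 in WT and 8.25 to 33.0 in KO, with Slc4a1 at 0 in all 12 libraries. The 10 neutrophil and monocyte markers ranged from 363 to 2096 over all libraries, the 7 B cell markers from 38.2 to 299.3, the 8 T and NK cell markers from 34.6 to 90.2 and the 6 megakaryocyte markers from 38.7 to 264.0. In the neutrophil and monocyte sum Mpo alone was 255 to 1650, whereas S100a8, S100a9, Ltf, Camp and Ngp reached at most 2.54. The 16 cycling-cell genes summed to 1602 to 2489 in WT and 1447 to 2683 in KO, so these ranges overlapped. WT replicate 3 and KO replicate 7 stood apart with summed Y-linked signals of 26.6 and 49.7, against 188.7 to 435.3 in the other 10 libraries, and results are also given without them.

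The summed signal of the 42 genes differed between genotypes by less than the spread of the libraries. It was 1501 ± 103.6 (SD, n = 6) in WT and 1534 ± 125.2 (SD, n = 6) in KO. This sum made up 0.0591 to 0.0988% of the signal of a library, or approximately 917 to 2247 reads spread over 42 genes. Per kilobase of mean transcript length, Ddb1 had the highest level, at 64.7 ± 13.9 signal per kb in WT and 67.6 ± 11.9 in KO (SD, n = 6). Nthl1 had the lowest, at 2.30 ± 1.89 in WT and 4.86 ± 2.41 in KO. With the longest transcript of each gene as the length, the order changed, and Mgmt was highest at 39.5 signal per kb over all libraries against 18.3 for Ddb1.

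A gene was tested when its mean signal over the 12 libraries reached 10, which 36 of the 42 members did. Using limma, an unadjusted p under 0.05 together with a log2 fold change of at least 0.5 was the threshold for a call. By this threshold 3 members differed between genotypes, Pms2, Gtf2h2 and Mutyh, and all 3 were lower in KO. They made up 8.33% of the members tested, whereas 2.62% of all 8887 genes tested passed in either direction and 1.24% passed as lower. Mutyh reached the level filter only through its WT libraries, and without it 2 of 35 members were called (5.71%). After rescaling to the total without Lars2 only Mutyh was called. Over all genes 123 were higher and 110 lower, and this split became 86 higher and 38 lower when the libraries were rescaled to their total without Lars2. In addition, Tdg had p under 0.05 but a smaller fold change, which made 4 members at that limit against 3.67% of all genes. No member and no other gene passed after Benjamini-Hochberg adjustment (0.0% called), and the adjusted p was 0.9996 for every member. The ranges of the 2 genotypes overlapped for all 36 members, and they did not for 8 of all genes tested (0.09%).

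**Figure D1:**
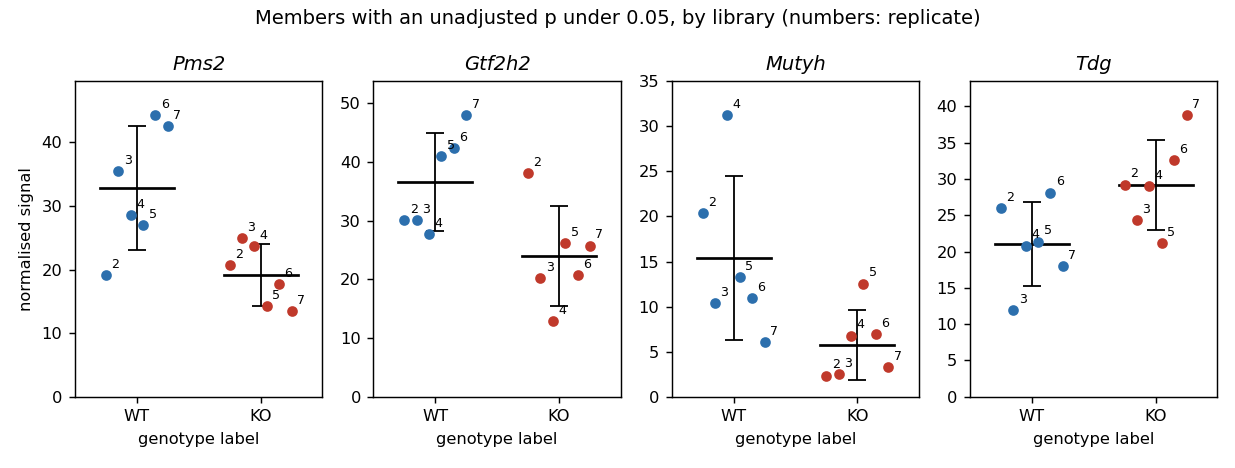
Normalised signal (y axis, linear, from 0) of Pms2, Gtf2h2, Mutyh and Tdg in each library labelled WT (blue) or KO (red), with replicate numbers beside the points and bars for the mean ± SD of 6 libraries. The mean of Pms2 is 32.9 in WT and 19.1 in KO, and the points of the 2 labels overlap in all 4 panels.

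Pms2 encodes the MutL subunit that nicks the strand to be corrected. It lies on chromosome 5 from 143909964 to 143933968 on the plus strand (GRCm38, ENSMUSG00000079109.11). In WT replicates 2 to 7 its signal was 19.1, 35.5, 28.6, 27.0, 44.3 and 42.6, and in the same-numbered KO libraries it was 20.7, 25, 23.7, 14.3, 17.7 and 13.4. Only WT replicate 2 fell within the KO range, and the KO library was lower for 5 of the 6 numbers. An exact sign-flip test over the 6 same-numbered differences gave p = 0.0625. The log2 fold change was -0.73 ± 0.23 (SE, limma, p = 0.0066, two-sided exact permutation test, p = 0.0152). With the 2 libraries low in Y-linked signal omitted it was -0.61 (limma, p = 0.0322, exact permutation p = 0.0556). The difference was -0.19 between libraries numbered 2 and 3 and -1.0 between those numbered 4 to 7. This split of the numbers was chosen after the values had been seen. After rescaling to the total without Lars2 the fold change was -0.68 and the call was lost (limma, p = 0.0516, exact permutation p = 0.0758). Of its 31-base words, 4.93% also occur in other genes, mostly in Gm42421, whose exons overlap those of Pms2 on the same strand together with Rsph10b.

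Gtf2h2 encodes a core subunit of TFIIH that holds the Ercc2 helicase active. The gene (ENSMUSG00000021639.17) occupies bases 100460218 to 100492579 of chromosome 13, minus strand. Its signal was 30.1, 30.1, 27.7, 40.9, 42.4 and 48.0 in WT and 38.1, 20.3, 12.9, 26.1, 20.7 and 25.7 in KO, in the order of replicates 2 to 7. All KO libraries except replicate 2 were below the lowest WT library. The log2 fold change was -0.63 ± 0.23 (SE, limma, p = 0.0170, exact permutation p = 0.0238). The exact sign-flip test gave p = 0.0625. KO replicate 4 was the lowest, and without it the change was -0.47 and no longer reached the fold threshold. Between libraries numbered 2 and 3 the difference was -0.11, and between those numbered 4 to 7 it was -0.89. The split was likewise chosen after the values had been seen. Omitting the 2 libraries low in Y-linked signal gave -0.71 (limma, p = 0.0193, exact permutation p = 0.0317). The call was also lost after rescaling to the total without Lars2, at -0.58 (limma, p = 0.0925, exact permutation p = 0.115).

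Mutyh encodes the glycosylase that removes adenine paired with 8-oxoguanine. It lies on chromosome 4 from 116807723 to 116819440 on the plus strand (ENSMUSG00000028687.17), and none of its 31-base words is shared with another gene. Signal in WT was 20.4, 10.4, 31.3, 13.3, 10.9 and 6.06, and in KO it was 2.35, 2.51, 6.77, 12.6, 6.97 and 3.31. The KO library was lower for all 6 numbers (exact sign-flip test, p = 0.03125), although WT replicate 7 and KO replicate 5 made the ranges overlap. The log2 fold change was -1.30 ± 0.43 (SE, limma, p = 0.0086, exact permutation p = 0.0260), the widest difference among the members tested and the one with the widest interval, from -2.22 to -0.38. These values correspond to approximately 2.06 to 42.6 reads per library. Its mean signal of 10.6 lay just above the filter and was carried by the WT libraries. By the split chosen after the values had been seen, the difference was -2.18 between libraries numbered 2 and 3. It was -0.86 between those numbered 4 to 7, where limma gave p = 0.121 and the exact permutation test p = 0.257. The change was -1.28 with the 2 libraries low in Y-linked signal omitted (limma, p = 0.0198, exact permutation p = 0.0714).

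Stretches of the promoters of the 3 genes are shown because these were the members called. The sequences are from RefSeq on GRCm38.p6, read 5′ to 3′ on the strand of the gene, and stop before the annotated start of the gene. Capitals mark GC boxes (GGGCGG) and CCAAT boxes (CCAAT) on either strand. They cover chr4:116807484-116807722 (plus), chr5:143909751-143909963 (plus) and chr13:100492580-100492644 (minus).
Mutyh: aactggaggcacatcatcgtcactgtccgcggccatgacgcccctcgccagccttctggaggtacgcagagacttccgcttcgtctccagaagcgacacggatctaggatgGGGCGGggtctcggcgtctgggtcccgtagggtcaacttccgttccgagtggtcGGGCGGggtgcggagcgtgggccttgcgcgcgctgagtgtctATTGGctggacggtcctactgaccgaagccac
Pms2: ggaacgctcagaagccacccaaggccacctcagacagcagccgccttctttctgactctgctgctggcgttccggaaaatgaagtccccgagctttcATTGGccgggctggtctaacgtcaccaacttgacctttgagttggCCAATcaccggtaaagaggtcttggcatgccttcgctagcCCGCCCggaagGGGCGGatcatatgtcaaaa
Gtf2h2: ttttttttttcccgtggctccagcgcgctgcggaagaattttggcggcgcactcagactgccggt
Mutyh and Pms2 each had 2 GC boxes in these stretches, with 1 CCAAT box in Mutyh and 2 in Pms2. Only 65 bases are shown for Gtf2h2, against 239 for Mutyh and 213 for Pms2, and they held neither motif. A GC box was present in a promoter window of 300 bases of Gtf2h2.

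Among all members, 37 of 42 had a promoter window of 300 bases in the same table, and Xpc, Ercc3, Polb, Poli and Rev3l had none. A GC box was present in 29 of these 37 (78.4%), compared with 38.2% of all 27025 genes with a window and 69.6% of the 6918 of them that were tested. A CCAAT box was present in 19 (51.4%), against 41.1% of all genes and 43.5% of the genes tested. The TATA box (TATAAA) was found in 2 (5.41%), against 15.7% of all genes and 8.53% of the genes tested. The ETS core (CCGGAAG) occurred in 6, namely Pms1, Pms2, Gtf2h2, Ogg1, Nthl1 and Rad18 (16.2%), against 9.93% of all genes and 22.9% of those tested. Each motif was searched on both strands, and matches of different motifs could overlap. A gene was counted when any of its windows held the motif. For CpG dinucleotides each gene was counted by its window with the most. The median was 25 for the members, 23 for the genes tested and 8 for all genes. In GC boxes and CpG the members lay closer to the genes tested than to all genes.

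None of the remaining mismatch repair genes was called. Msh3, the MutS partner for larger loops, had the highest level per length of the group, with a lowest, median and highest signal of 36.3, 48.8 and 61.3 in WT and 45.2, 51.3 and 67.9 in KO. Its log2 fold change was 0.10, with a 95% interval from -0.24 to 0.44. Msh6 (-0.02), Pms1 (-0.03) and Mlh3 (0.22) likewise had intervals that included 0, and the median log2 fold change of the 5 genes was -0.02. Msh6 shares 10.8% of its 31-base words with other genes, mostly Gm11855, listed at a mean signal of 0.

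Damage recognition in nucleotide excision repair was covered by 6 genes, of which none was called. Ddb1, the adaptor of the ligase that marks damaged chromatin, had a signal of 65.6, 76.6 and 113.1 (lowest, median, highest) in WT and 64.8, 83.0 and 102.0 in KO, and its log2 fold change was 0.07 (95% interval -0.28 to 0.41). Xpa, the scaffold that verifies the lesion, had 7.72, 5.22, 10.6, 9.99, 8.93 and 8.77 in WT and 23.2, 12.8, 5.40, 23.9, 10.3 and 16.6 in KO. Its KO values spread more widely, and 4 KO libraries exceeded the highest WT library while KO replicate 4 lay near the lowest. Xpa reached the level filter only through its KO libraries, with a mean signal of 15.4 in KO and 8.53 in WT. Its values correspond to approximately 4.53 to 28.6 reads per library. The log2 fold change of Xpa was 0.66 ± 0.33 (SE, limma, p = 0.0640, exact permutation p = 0.0714). Without KO replicate 4 it was 0.91 (limma, p = 0.00627, exact permutation p = 0.00433), which would make it a call in the higher direction. No other single omission made Xpa a call, and over all 12 the change ranged from 0.515 to 0.906. It was 0.496 with the 2 libraries low in Y-linked signal omitted (limma, p = 0.195, exact permutation p = 0.246). With libraries numbered 4 to 7 alone, a subset chosen after the values had been seen, it was 0.342 (limma, p = 0.432, exact permutation p = 0.4). Xpc and Rad23b, which bind the distorted helix together, had log2 fold changes of 0.15 and -0.08, and the transcription-coupled factors Ercc6 and Ercc8 both had -0.11. KO replicate 4 held an Xpc signal of 326.1, and the 5 KO libraries beside it 74.6 to 133.8.

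TFIIH and its nuclease comprised 8 genes, 6 of them tested, and only Gtf2h2 was called. The helicases Ercc2 and Ercc3 had log2 fold changes of 0.26 and 0.17. The other core subunits Gtf2h1, Gtf2h3 and Gtf2h5 had -0.12, 0.11 and -0.19. Thus the difference seen for Gtf2h2 was not accompanied by a call in any other tested subunit, although the difference between the subunits was not tested. Ercc2 shares 34.1% of its 31-base words with other genes, mostly the antisense gene Gm26852. Under the filter, Gtf2h4 ranged from 4.77 to 9.10 in WT and from 6.00 to 35.1 in KO, and the nuclease Ercc5 from 4.74 to 16.4 and from 4.36 to 16.0.

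**Figure D2:**
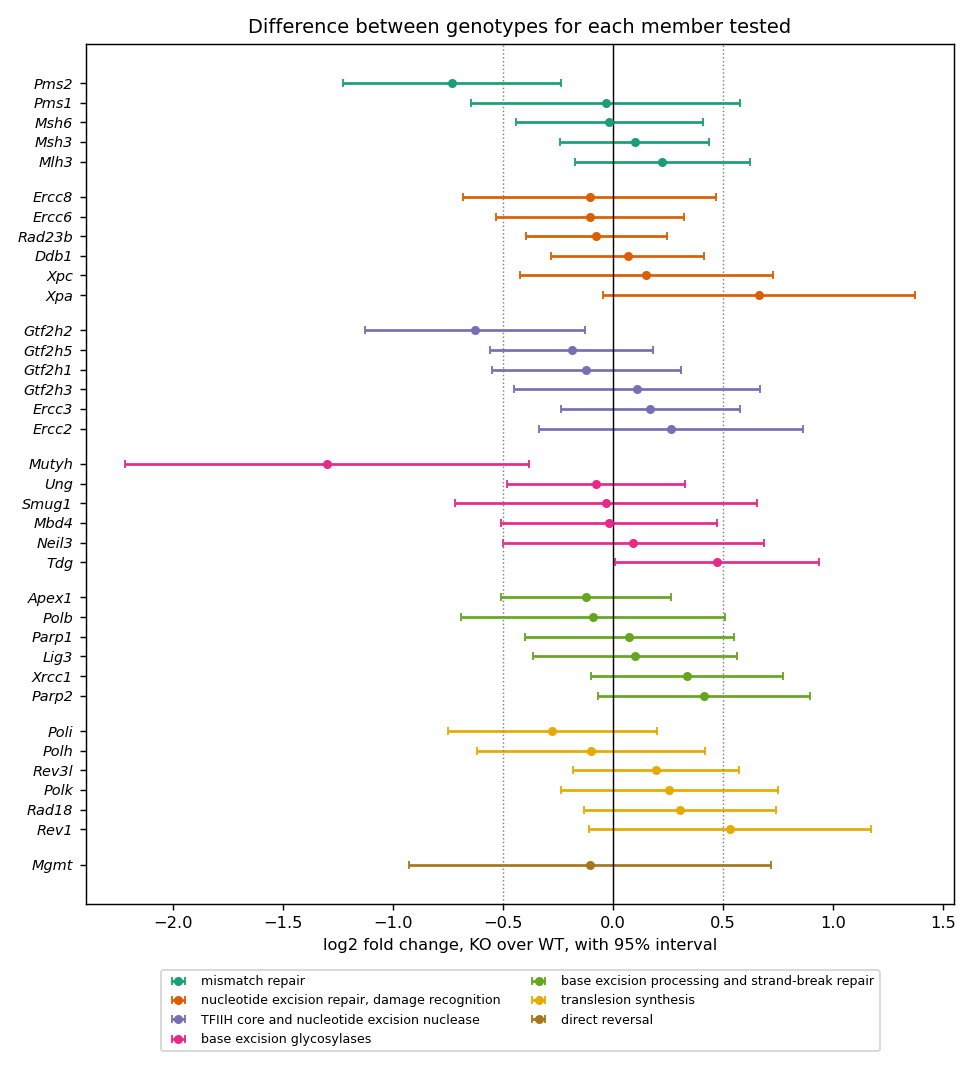
Log2 fold change of KO over WT (x axis) with its 95% interval from limma for the 36 members tested, grouped by role, with dotted lines at 0.5 in either direction. The intervals of Pms2, Gtf2h2, Mutyh and Tdg leave out 0, and 31 of 36 estimates lie within the dotted lines.

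Of the 9 base excision glycosylases 6 were tested, and Mutyh and Tdg had p under 0.05 in opposite directions. Tdg, which removes thymine and oxidised methylcytosine opposite guanine, lies on chromosome 10 from 82629828 to 82650799 on the plus strand (ENSMUSG00000034674.18). Its signal was 26.0, 12, 20.8, 21.4, 28.1 and 18 in WT and 29.2, 24.4, 28.9, 21.1, 32.5 and 38.8 in KO. The KO library was higher for 5 of 6 numbers (exact sign-flip test, p = 0.0625), and the ranges overlapped between 21.1 and 28.1. The log2 fold change was 0.47 ± 0.22 (SE, limma, p = 0.0463, exact permutation p = 0.0433), under the fold threshold. Leaving out any of 8 single libraries (WT replicates 3, 4, 5 and 7, KO replicates 2, 4, 6 and 7) raised p to between 0.0598 and 0.119. Leaving out any of the other 4 (WT replicates 2 and 6, KO replicates 3 and 5) made Tdg a call in the higher direction, with log2 fold changes of 0.52 to 0.56. The change was 0.24 with the 2 libraries low in Y-linked signal omitted (limma, p = 0.237, exact permutation p = 0.159). Of the 31-base words of Tdg 48.0% occur in other genes, with 37.1% in the pseudogene Tdg-ps, so its reads are uncertain.

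No other glycosylase was called. Ung, which removes uracil from DNA, had the highest level per length of this group, with 29.0, 39.6 and 50.8 (lowest, median, highest) in WT and 25.3, 37.2 and 45.9 in KO. Its log2 fold change was -0.08 (95% interval -0.48 to 0.33). Mbd4 and Smug1, which act on mispaired thymine and uracil, had -0.02 and -0.03, and Neil3, which acts on oxidised bases in single strands, had 0.09. Ogg1, the 8-oxoguanine glycosylase that works ahead of Mutyh, was under the filter, at 4.10 to 16.1 in WT and 4.35 to 13.0 in KO. Nthl1 and Neil1, which remove oxidised pyrimidines, were also under it, at 0 to 5.24 and 3.53 to 13.5 in WT and at 2.17 to 8.86 and 2.34 to 11.7 in KO.

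Among the 6 genes that process the abasic site or the strand break, 4 had a higher and 2 a lower estimate in KO, and none was called. Apex1, the abasic endonuclease, had 29.4, 40.0 and 48.7 (lowest, median, highest) in WT and 29.9, 35.3 and 50.2 in KO, with a log2 fold change of -0.12 (95% interval -0.51 to 0.26). Parp2, a sensor of strand breaks, had 9.07, 13.1, 16.2, 13.8, 12.8 and 18.4 in WT and 19.2, 14.1, 23.8, 13.8, 24.6 and 17.9 in KO, so that 3 KO libraries exceeded every WT library. The log2 fold change of Parp2 was 0.41 ± 0.23 (SE, limma, p = 0.0876, exact permutation p = 0.0563). Xrcc1, the scaffold of single-strand break repair, had 0.34, its partner Lig3 0.10, Parp1 0.07 and Polb, the gap-filling polymerase, -0.09. Apex1 shares 57.1% of its 31-base words with other genes, chiefly the overlapping antisense gene Pip4p1, and Lig3 shares 24.3% with the antisense gene Rffl. How the counting treated strand was not given in the sources used here.

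Translesion synthesis was the group with the highest median, 0.23 over its 6 tested genes, but no member of it was called. Rev1, a deoxycytidyl transferase that also recruits the other polymerases, had 12.3, 12.2, 7.76, 13.2, 17.4 and 11.0 in WT and 14.2, 16.1, 9.61, 15.7, 22.2 and 40.6 in KO. The KO value was higher for all 6 numbers (exact sign-flip test, p = 0.03125), and the ranges overlapped between 9.61 and 17.4. Its log2 fold change was 0.53 ± 0.30 (SE, limma, p = 0.0969, exact permutation p = 0.106). It was 0.70 without KO replicate 4, a call in the higher direction (limma, p = 0.0291, exact permutation p = 0.0173), and 0.31 with the 2 libraries low in Y-linked signal omitted, of which KO replicate 7 held the highest value. Rev1 shares 24.2% of its 31-base words with other genes, mainly Eif5b on the other strand. Rad18, the ligase that ubiquitinates PCNA at stalled forks, had 39.4, 61.0 and 95.4 (lowest, median, highest) in WT and 61.9, 75.9 and 87.7 in KO, with a log2 fold change of 0.31 (95% interval -0.13 to 0.74). Rev3l, the catalytic subunit of polymerase zeta, had 0.19, Polk 0.26, Polh -0.10 and Poli -0.28. Mad2l2, the other subunit of polymerase zeta, was under the filter at 3.56 to 10.8 in WT and 4.18 to 13.9 in KO.

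**Figure D3:**
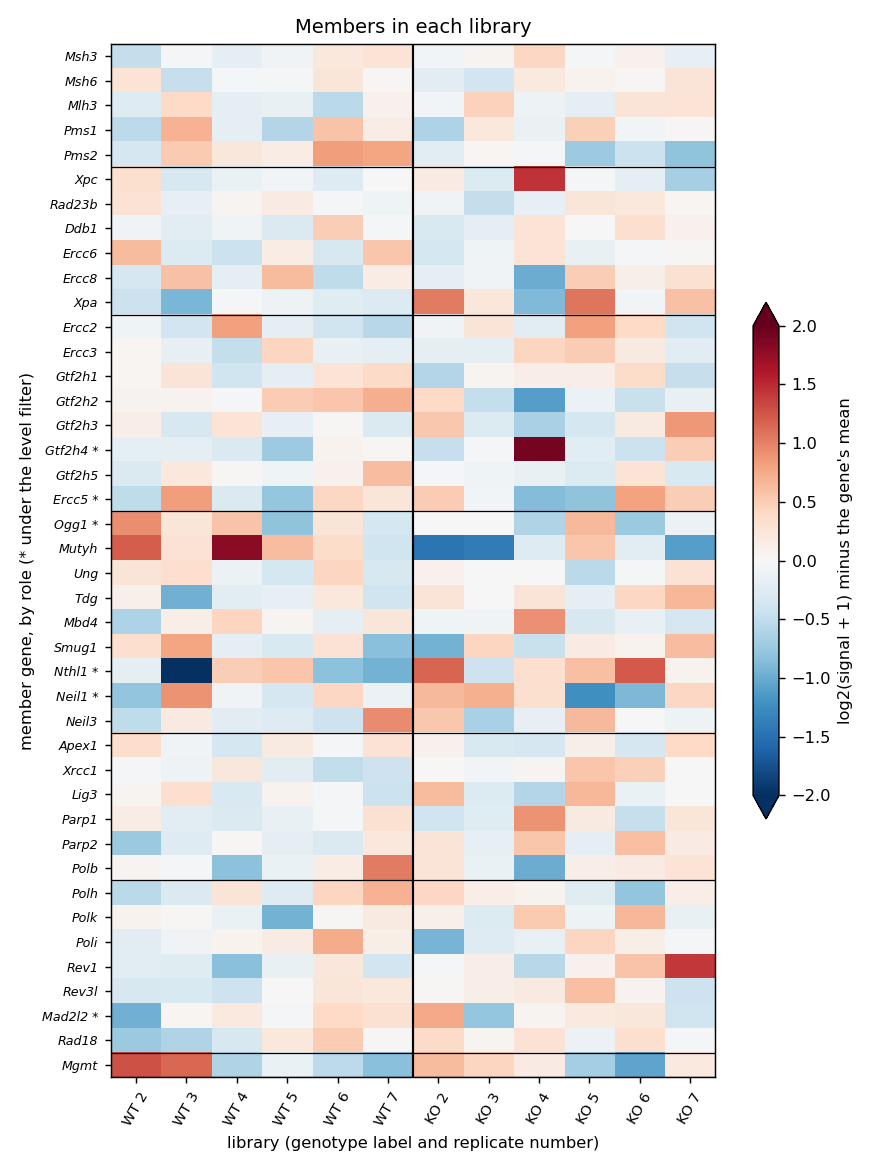
Deviation of log2(signal + 1) from the mean of the gene (colour, red above and blue below) for the 42 members by role (rows, with lines between roles) in the 12 libraries (columns, WT left of the vertical line). Deviations of a single library, such as Xpc at 326.1 in KO replicate 4, stand beside genes that vary little, such as Rad23b.

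Mgmt, which takes alkyl groups from guanine in a single step, varied most within the groups among the members tested. Its signal was 242.5, 222.5, 65.6, 90.6, 69.4 and 55.4 in WT and 156.3, 134.5, 111.7, 62.3, 47.5 and 114.2 in KO. The 4 libraries numbered 2 and 3 were all above the 8 numbered 4 to 7 in both genotypes. The genotypes themselves differed by a log2 fold change of -0.11 (95% interval -0.93 to 0.72). The within-group SD of 0.80 on the log2 scale was the highest of the members tested, against a median of 0.40. In the same 4 libraries Lars2 took 15.6 to 19.0% of the signal, compared with 24.7 to 36.2% in the 8 others. Of all genes tested 327 (3.68%) separated these numbers as Mgmt did, and Mgmt was the only member among them (2.78%). The numbers were chosen for this description after the values had been seen, the labels do not call them a batch, and the part of the Lars2 share in the level of Mgmt was not tested.

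**Figure D4:**
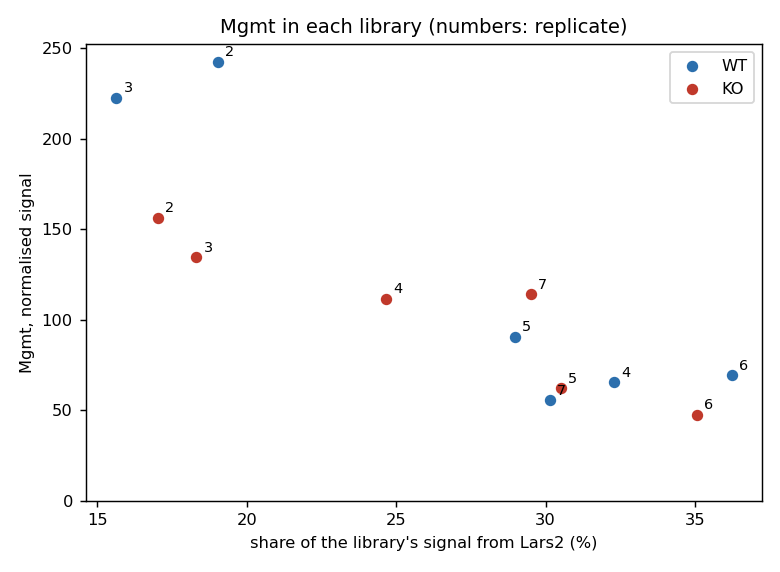
Normalised signal of Mgmt (y axis, linear) against the share of the library signal taken by Lars2 (x axis, percent) in 12 libraries, WT in blue and KO in red, with replicate numbers. Libraries numbered 2 and 3 lie at 134.5 to 242.5 and below 20% Lars2, and the other 8 at 47.5 to 114.2.

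Of the 36 members tested 18 had a higher and 18 a lower estimate in KO, and their median log2 fold change was 0.02, compared with 0.00 for all genes tested. In 31 members the estimate lay within 0.5 of 0, and in 31 the 95% interval lay within -1 and 1. The median half-width of the interval was 0.48, so that in a typical member an estimate under this size had an interval that included 0. This holds without adjustment, and no member passed after it. The median within-group SD was 0.40 in the members and 0.41 in all genes tested.

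**Figure D5:**
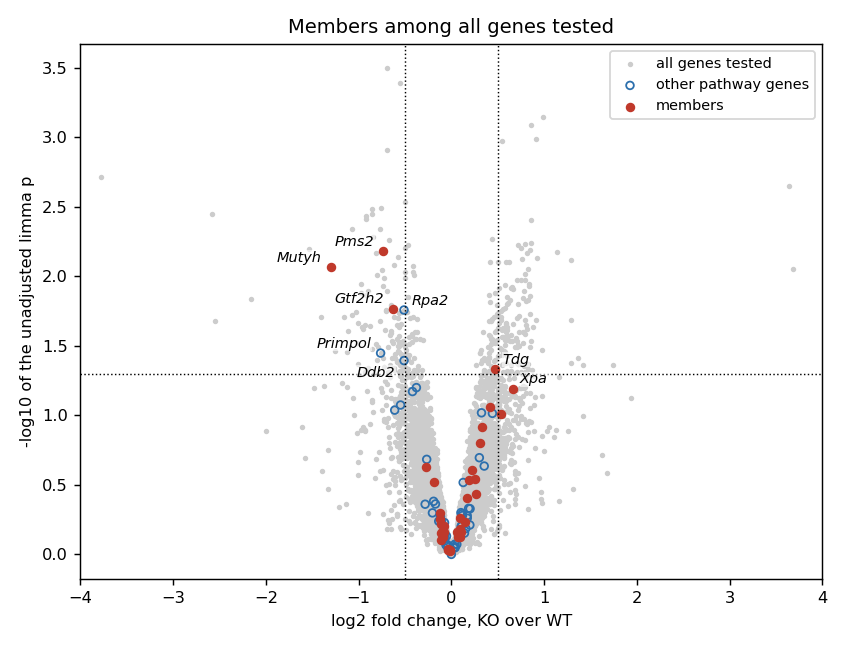
Unadjusted limma p on a -log10 scale (y axis) against log2 fold change of KO over WT (x axis) for 8887 genes (grey), 36 members (red) and 49 other pathway genes (blue rings), with dotted lines at the call thresholds. The 3 called members and the 3 called pathway genes all lie on the left, lower side, and no gene passed after Benjamini-Hochberg adjustment.

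For comparison, 54 further genes of the same pathways were listed, and 49 of them were tested. Of the 49, 3 were called (6.12%), all lower in KO. Of all genes tested 2.62% were called in either direction and 1.24% as lower. None of the 49 passed after Benjamini-Hochberg adjustment, and their median log2 fold change was -0.04. Rpa2, a subunit of the single-strand binding protein, had 20.2, 22.4 and 33.6 (lowest, median, highest) in WT and 13.1, 16.3 and 21.1 in KO (log2 fold change -0.51 ± 0.19 SE; limma, p = 0.0174, exact permutation p = 0.00866). Ddb2, the damage sensor that binds Ddb1, had 15.3, 18.1 and 22.6 in WT and 7.15, 13.9 and 18.3 in KO (-0.51 ± 0.23 SE; limma, p = 0.0403, exact permutation p = 0.0108). Primpol, a primase that restarts synthesis beyond a lesion, had 16.7, 22.7 and 59.1 in WT and 7.72, 17.3 and 23.7 in KO (-0.76 ± 0.33 SE; limma, p = 0.0356, exact permutation p = 0.0801). Its WT replicates 2 and 6 were at 48.2 and 59.1, and the other WT libraries lay within the KO range. The ranges of the 2 genotypes overlapped for each of these genes. Values with libraries omitted or rescaled without Lars2 are not given for them.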

How the data were processed

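The values deposited by the authors are signal, 1 for each gene in each library. Name and values were read as a kallisto estimated count divided by a size factor per library and not by length. Kallisto is named in the submitters' processing notes. The mouse build, annotation and counting of strand are not given in the sources used here. All columns were matched to a library, and 0 were left unused. RNA was enriched for mRNA, and libraries were made with a CATS kit.

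A mean signal of 10 or more was required, and genes were tested on log2(signal + 1) with limma 3.58.1 in R 4.3.3 (KO against WT, trend, two-sided, Benjamini-Hochberg over 8887 genes), so folds of low genes are understated. Count models were not used, because whole reads could not be recovered (12.4 to 13.2% of values came out whole within 0.01). The script was tested on simulated data. Exact permutation tests used the log2 values and cannot go below p = 0.00216. Exact sign-flip tests over the 6 same-numbered differences cannot go below p = 0.03125. Positions and shared 31-base words came from GENCODE release 21 on GRCm38.

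Given in full are members with p under 0.05 and, for each role, those with the smallest p and the highest level per length. Members, lists and tests were chosen with earlier results of these data known. Alternatives were pseudocounts of 0.5 and 5, other filters and scalings, limma without trend, the replicate block and omitted libraries. Libraries numbered 4 to 7 alone were added after seeing the data.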

Additional observations from a re-analysis of the deposited data

Results flagged for a closer look

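In 84 groups of 6 libraries (42 genes in 2 genotypes) a single library was compared with the others by its gap over the range, and 9 groups passed the 95% limit of Dixon's test, where chance at 1 in 20 gives 4.2. The share was 10.7%, and over the members that passed the level filter it was 8 of 72 groups (11.1%). Both were near the 9.05% found over the same groups of all 8887 genes tested. All of the KO values concerned came from replicate 4. They were Xpc, which binds the distorted helix, at 326.1 where the others had 74.6 to 133.8, the TFIIH subunit Gtf2h4 at 35.1 against 6.00 to 12.6, and the glycosylase Mbd4 at 70.8 against 29.2 to 35.2. KO replicate 4 stood above the other KO libraries in this way for 2.49% of all genes tested, and the other KO libraries did so for 0.461 to 2.63%. In WT replicate 6, Ddb1 was at 113.1 against 65.6 to 78.6 and the polymerase Poli at 59.6 against 30.0 to 39.4, and that library stood above the rest for 2.69% of all genes. In WT replicate 7, Neil3 was at 40.8 against 14.3 to 23.7 and Polb at 72.4 against 19.3 to 38.6. Ercc2 was at 24.9 in WT replicate 4 against 9.06 to 12.9, and Polk was low in WT replicate 5, at 11.4 against 20.8 to 25.8.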

How the results depend on the processing

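The count of 3 members called stayed within 1.5 times under other pseudocounts, without a filter, under quantile and median-ratio scaling and without trend, and was 3 to 4 with single libraries left out. It was 0 with a mean signal of at least 50, where 9 members were tested, and 1 (Mutyh) after rescaling to the total without Lars2, which moved the median of all genes by 0.05. There Pms2 (-0.68, limma p = 0.0516, exact permutation p = 0.0758) and Gtf2h2 (-0.58, limma p = 0.0925, exact permutation p = 0.115) were not called. The cause was not tested. The count was 4 with quantile normalization and without trend, adding Xpa, higher in KO and past the level filter only through KO libraries. With the libraries numbered 4 to 7 alone it was 2. The calls over all genes ranged from 37 with the stricter filter and 124 without Lars2 in the total to 658 without a filter, against 233.

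Mgmt changed sign to 0.064 with the 2 libraries low in Y-linked signal omitted and to 0.18 with libraries numbered 4 to 7, and ranged from -0.28 to 0.14 with single libraries left out. Ung changed sign to 0.013 with libraries numbered 4 to 7 and ranged from -0.16 to 0.024. Rev1 (0.70) and Xpa joined the called members without KO replicate 4, and Gtf2h2 left them. Tdg joined them, higher in KO, in 4 of the 12 single omissions. The median log2 fold change of the members ranged from -0.00 to 0.10 over all settings.

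With the replicate block the count was 3 and 286 genes were called over all. Of the other pathway genes 4 were called, all lower in KO, with Aptx (-0.61) and Msh4 (-0.55) in place of Ddb2. Same-numbered libraries deviated together with a mean correlation of 0.196 (0.086 to 0.362), against -0.039 for different numbers. Only 4 of 6 numbers passed 0.1, so the numbers were not taken as pairs. Of the 12 libraries 9 correlated best with their own number. Depth limits the low genes, since Mutyh rests on 2.06 to 42.6 reads per library.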
